A study of Mus musculus with 12 samples.

Results

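The transcriptome described here is that of the unstressed left ventricle of the mouse, read from 3 sham control libraries out of 12 in a study of 4 groups with 3 libraries each. The libraries were chosen by their labels alone: sham surgery, and "control" under drug treatment, which means no dantrolene. Each came from a separate male C57BL/6 mouse that was operated on at 8 weeks of age, with the aorta exposed and left without a ligature, and was sampled at 12 weeks after the heart had been arrested with potassium chloride. Poly(A) RNA was sequenced as directional, paired reads of 150 nucleotides. The counts held 34488017, 27393064 and 25933503 reads in libraries 1, 2 and 3, and 18849, 18819 and 18839 of 25319 listed genes had a read. No group was compared with another, so the values below are levels, each given per library or as mean ± SD over 3 mice.

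The ventricle is built mainly of cardiomyocytes, which shorten at every beat. Thick filaments of myosin pull on thin filaments of actin, troponin and tropomyosin, and calcium released by the ryanodine receptor and recovered by the SERCA pump starts and ends each contraction. The ATP for this comes mainly from oxidative phosphorylation in mitochondria, fed mostly by fatty acids, and myoglobin and the creatine kinases carry oxygen and high-energy phosphate to the filaments. Many muscle proteins belong to families whose members differ between heart and skeletal muscle, atrium and ventricle, or fetus and adult.

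Levels are given in FPKM, the authors' fragment counts scaled to gene length and to library size, so that genes of different length can be set side by side. Levels and ranks by FPKM therefore rest on the gene lengths that the authors used. In bulk tissue, fewer cells of a type and less RNA per cell cannot be told apart. Library 3 stood apart from the other mice. Across genes, log2(FPKM + 1) had a Pearson r of 0.993 between libraries 1 and 2, against 0.980 between 1 and 3 and 0.982 between 2 and 3. The share of genes differing over 2-fold was 1.44% in the first of these pairs, 3.31% in the second and 4.61% in the third. Values are therefore printed library by library wherever a result rests on them. The order of libraries for a gene can also depend on the scale. Of 6855 genes with a mean of at least 10 CPM (reads scaled to a common library size), 23.5% were highest in library 3 by FPKM. By CPM it was 39.9%.

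The list of ventricular cardiomyocyte markers summed far above any other list. It holds genes of heart muscle in general, such as Tnni3 and Mybpc3, so its sum alone does not separate ventricle from atrium. Markers such as Myl7 and Myh4 of atrium or fast skeletal muscle were near 0. The 10 ventricular cardiomyocyte markers summed to 39874, 37757 and 39583 FPKM in libraries 1, 2 and 3. Of 8 atrial markers 7 were listed, with sums of 218, 281 and 474 FPKM, and Nppa, the atrial natriuretic peptide, carried nearly the whole sum; Myl7, the atrial myosin light chain, had 0.04, 0.05 and 0.11 FPKM. Of 11 skeletal muscle markers, Myh1 and Myh4 were at 0 in the 3 libraries, and the list's sums of 3213, 3360 and 4637 FPKM came almost wholly from Ckm, the muscle creatine kinase that the heart shares. The 11 smooth muscle and pericyte markers were each at 1 FPKM or more in the 3 libraries and summed to 244, 256 and 291 FPKM, led by Acta2, smooth muscle actin, with 100.95, 100.8 and 140.1 FPKM. Endothelial markers summed to 1353, 1221 and 995 FPKM, fibroblast markers to 946, 1113 and 1031 FPKM, and macrophage markers to 585, 490 and 847 FPKM. Lymphocyte markers reached 5.33 FPKM at most and epicardial markers 1.50 FPKM at most, while erythroid markers summed to 5803, 1246 and 2641 FPKM and so differed more between mice than any other list.

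A small number of genes made up most of the measured RNA. The 10 most abundant genes held 21.97%, 21.01% and 20.02% of summed FPKM in libraries 1, 2 and 3, and the 100 most abundant held 51.4%, 50.4% and 52.4%. The number of genes needed to reach 50% was 93, 98 and 89. A mean of 1000 FPKM or more was reached by 105 genes, 103 of them protein coding, which together held 52.001 ± 0.992% (SD, n = 3). At the other end, 15643 genes lay under 1 FPKM and held 0.427% in all. By reads, which also count the length of a gene, the share of the top 100 was 42.2%. The spread between mice in these shares was small, and without library 3 the top 100 held 50.9%.

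The most abundant transcript overall was mitochondrial. mt-Co1, the catalytic subunit of cytochrome c oxidase, lies at chrM:5328-6872 on the plus strand (GRCm38) and had 43392, 37208 and 25163 FPKM in libraries 1, 2 and 3. It was highest in library 1 and lowest in library 3, which differed 1.72-fold. The most abundant nuclear transcript was Mb, myoglobin, the oxygen store of heart and red muscle, at chr15:77015487-77050670 on the minus strand. Mb had 19181, 18187 and 23124 FPKM, highest in library 3.

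**Figure D1:**
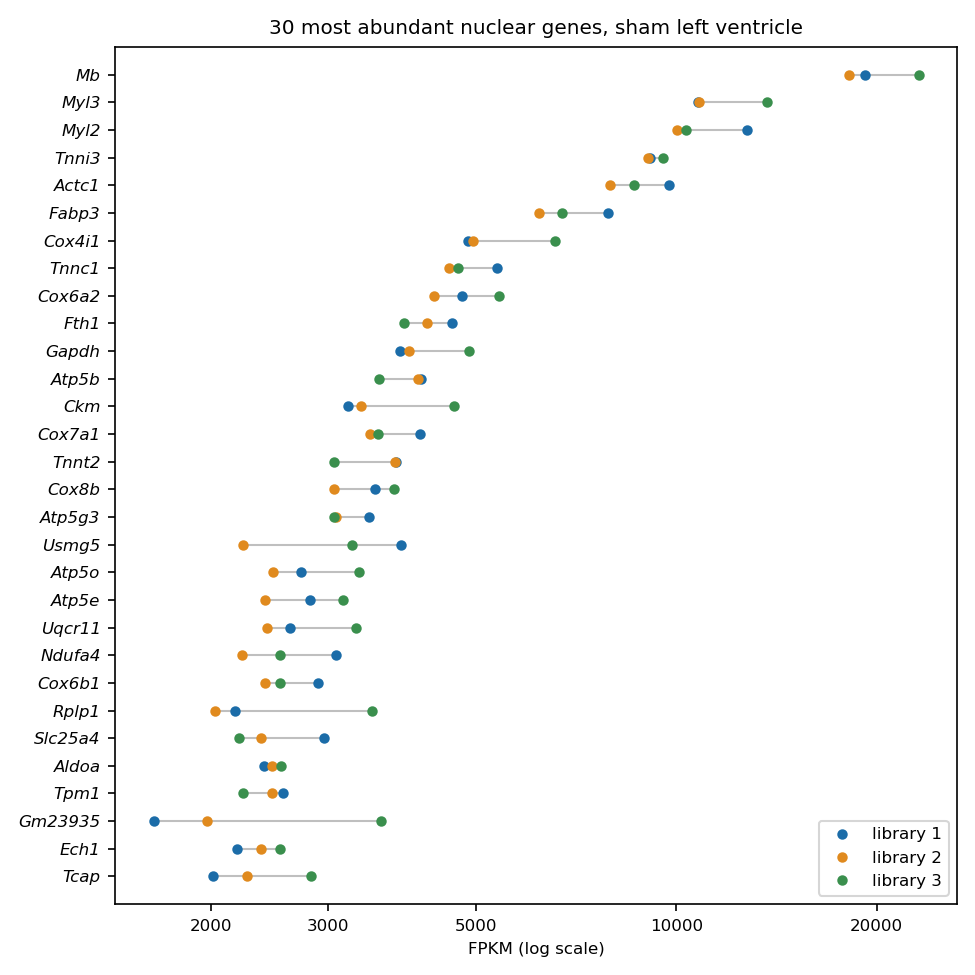
FPKM (log scale) in each of the 3 sham control libraries (points, coloured by library) for the 30 nuclear genes with the highest mean, highest at the top, with a grey line joining the lowest and the highest library. Mb stands first at 18187 to 23124 FPKM; Tnni3 and Aldoa show 3 points close together, while Gm23935, Usmg5 and Rplp1 show wide gaps.

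Genes of the contractile apparatus and of ATP production filled most of the list below myoglobin. Among the 30 most abundant nuclear genes, 12 encoded parts of oxidative phosphorylation, 8 sarcomere proteins, 3 the myoglobin, creatine kinase and nucleotide exchange group, 2 proteins of fatty acid handling and 2 of glycolysis; a ribosomal protein, a ferritin chain and a small non-coding gene made up the rest. Their coefficient of variation of FPKM between mice ran from 2.82% to 43.7% with a median of 12.7%, and 26 of the 30 were under 20%. The steadiest of them by FPKM was Tnni3, cardiac troponin I, with 9140, 9073 and 9555 FPKM (chr7:4518305-4524229, minus strand). Aldoa, the glycolytic aldolase of muscle, was nearly as even by FPKM at 2399, 2470 and 2552. By CPM the smallest ratios between libraries belonged to other genes.

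The 2 light chains of ventricular myosin stood near the top. Myl3, the essential light chain, at chr9:110741861-110769798 on the plus strand, had 10774, 10832 and 13675 FPKM, and Myl2, the regulatory light chain, had 12765, 10006 and 10350.2 FPKM. Their order turned over between mice, with Myl2 ahead in library 1 and Myl3 ahead in libraries 2 and 3. Myl4, the light chain of atrium and fetal heart, stayed at 1.84, 2.18 and 3.41 FPKM. Myl3 made up 45.7%, 51.9% and 56.9% of the light chain family, so no member dominated it.

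Thin filament genes followed with little competition from other isoforms. Actc1, cardiac actin, had 9752, 7942 and 8636 FPKM and 89.1%, 87.2% and 91.2% of the actin family. Acta1, the skeletal muscle actin, had 176, 187 and 186 FPKM, under the cytoplasmic Actb, which had 536, 539 and 306 FPKM. Troponin was more one-sided than actin: Tnni3 held 99.97% of troponin I, Tnnt2 99.6% of troponin T and Tnnc1, the calcium-binding subunit shared by heart and slow muscle, close to the whole of troponin C. Tnnt2 had 3786, 3785 and 3063 FPKM, and Tnnc1 had 5377, 4556 and 4704 FPKM. Tpm1 held 98.3% of tropomyosin.

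Myosin heavy chain was almost wholly Myh6, the fast alpha chain of the adult mouse ventricle. Myh6 had 1464, 2117 and 1275 FPKM, against 10.8, 21.2 and 9.31 FPKM for Myh7, the beta chain of fetal and stressed mouse ventricle. Both were highest in library 2, and the share of Myh6 in the 12 genes of the family stayed at 97.4%, 97.4% and 97.5%. The 2 genes are neighbours and alike in sequence: 11.4% of the 100-base stretches of the longest Myh6 transcript also occur in Myh7 transcripts. A part of the reads of either could thus belong to the other. The skeletal and perinatal chains Myh1, Myh4 and Myh8 were at 0 in the 3 libraries. Mhrt, an antisense transcript that overlaps Myh7, had 44.4, 31.7 and 27.96 FPKM, more than Myh7 itself; the strand setting of the counting is not stated in the sources used.

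The heavy chain genes carry microRNAs in their introns, whose sequences are shown because they tie this family together. The mature strands from Myh6, Myh7 and Myh7b are, from RefSeq on GRCm38.p6, 5′ to 3′ with the seed (bases 2 to 8) in capitals:
mmu-miR-208a-3p: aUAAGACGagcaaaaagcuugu
mmu-miR-208b-3p: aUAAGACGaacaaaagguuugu
mmu-miR-499-5p: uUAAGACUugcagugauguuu
The first lies inside Myh6 at chr14:54949072-54949093 on the minus strand, the second inside Myh7 at chr14:54975710-54975731 on the minus strand, and the third inside Myh7b at chr2:155622893-155622913 on the plus strand. miR-208a and miR-208b share the seed UAAGACG, and miR-499 has UAAGACU. The host Myh7b had 1.15, 2.53 and 0.73 FPKM, far under Myh6. Poly(A) libraries do not measure mature microRNAs, and the precursor genes of miR-208a and miR-208b were listed with 0 reads in the 3 libraries.

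Across the 32 genes of the sarcomere and Z-disc list, the share of summed FPKM was 11.2%, 11.1% and 10.99% in libraries 1, 2 and 3. This was the steadiest of the large classes, at 11.1 ± 0.120% (SD, n = 3). Mybpc3, cardiac myosin-binding protein C, had 741, 815 and 669 FPKM. In CPM, reads scaled to a common library size by edgeR's TMM factors, it had 3534, 3593 and 3567 and the smallest ratio between libraries of the genes at 100 FPKM or more, whereas by FPKM it was number 197 of 646 in that order. Mybpc3 held 99.7% of its family, Actn2 95.9% of the alpha-actinins, Csrp3 95.4% of the muscle LIM proteins and Des, desmin, 90.7% of the intermediate filament genes set beside it. Ttn, titin, the giant spring of the sarcomere, had 1.76, 2.31 and 1.78 FPKM. It was number 7792 of all genes by FPKM and number 550 by reads. Across 8964 protein-coding genes at 1 FPKM or more, FPKM fell with transcript length (Spearman rho −0.387). The part of this in the level of Ttn was not tested. Myl12a, a non-muscle light chain, held 79.1%, 79.4% and 72.1% of its family.

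The promoters of these genes were searched for 4 motifs in windows of 300 bases, 250 before and 50 after the start in RefSeq on GRCm38.p6, on both strands, and 26 of the 32 sarcomere genes had a window. A gene was counted once, when any of its windows held a match. The letters CTA, any 4 bases and then TAG, a pattern that includes the core bound by MEF2 factors, were found in 9 of the 26 genes (34.6%). They were found in 1144 of all 27025 genes with a window (4.23%) and in 1 of 67 for nuclear oxidative phosphorylation (1.49%). The CArG box, bound by serum response factor, was found in 6 of 26 (23.1%), against 1.81% of all genes with a window and 0 of 67. Those 6 were Myl3, Actc1, Acta1, Ldb3, Myom1 and Nebl. TATAAA was found in 5 of 26 (19.2%), namely Acta1, Actc1, Myh6, Myl2 and Pdlim5, against 15.7% of all genes with a window. The 9 genes with CTA, any 4 bases and TAG were Des, Myoz2, Mybpc3, Smpx, Ldb3, Flnc, Synpo2l, Xirp2 and Ttn, and the oxidative phosphorylation gene with it was Cox5b. With A or T alone at the 4 inner positions, as in the MEF2 core, 5 of the 26 genes matched (19.2%: Myoz2, Mybpc3, Synpo2l, Xirp2 and Ttn), against 172 of 27025 (0.636%) and 0 of 67. These patterns other than TATAAA read the same on both strands and may overlap each other. A match describes letters in a window, and binding was not measured.

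The 4 most abundant sarcomere genes with the wider pattern before the start are shown to make these matches visible, each as 60 bases 5′ to 3′ on the gene's strand with the match in capitals:
Myoz2: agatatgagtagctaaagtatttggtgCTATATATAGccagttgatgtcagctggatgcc
Mybpc3: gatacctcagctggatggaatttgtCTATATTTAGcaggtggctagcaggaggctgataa
Smpx: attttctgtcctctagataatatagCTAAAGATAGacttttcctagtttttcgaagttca
Ldb3: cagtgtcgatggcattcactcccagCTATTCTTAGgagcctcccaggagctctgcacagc
The stretches lie at chr3:123034988-123035047 (minus) for Myoz2, which encodes a Z-disc protein that binds calcineurin, chr2:91118029-91118088 (plus) for Mybpc3, chrX:157698822-157698881 (plus) for Smpx, a small muscle protein, and chr14:34588628-34588687 (minus) for Ldb3, a Z-disc scaffold. The match begins 33, 90, 126 and 55 bases before the RefSeq start in this order, and those of Myoz2 and Mybpc3 hold A or T alone between CTA and TAG. In the GENCODE coordinates Myoz2 starts at 123035015 and Ldb3 at 34588682, both inside the stretches shown. These genes and motifs were picked after the levels were known.

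Calcium handling genes gave a small share of the RNA, with several families almost held by a single member. The 23 genes of the list made up 0.793%, 0.821% and 0.732% of summed FPKM. Atp2a2, the cardiac SERCA pump, had 1267, 1270 and 750 FPKM, 99.5% of its family, and was lowest in library 3. Pln, phospholamban, the brake on that pump, held 99.9% of its family, while sarcolipin (Sln), its atrial counterpart, had 0, 0 and 0.06 FPKM. The most abundant gene of the list was S100a1, a calcium-binding partner of the pump and the release channel, with 1674, 1540 and 2028 FPKM.

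The channel of calcium release, Ryr2, had 10.4, 13.6 and 7.98 FPKM. It held 99.4%, 99.1% and 95.5% of the ryanodine receptors, and the lower share in library 3 went with Ryr1, the skeletal channel, at 0.03, 0.09 and 0.35 FPKM. Casq2, the calcium store protein of heart, held 98.6% of the calsequestrins. Slc8a1, the sodium-calcium exchanger, held 93.7% of its family. Other families were mixed: Cacna1c, the L-type channel pore of heart, held 70.5%, 75.8% and 62.6%, Gja1 (connexin 43) 67.1%, 60.2% and 54.3%, and Camk2g 37.2% beside Camk2a at 32.4%.

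Adrb1, the main beta-adrenergic receptor of heart, had 4.70, 5.21 and 2.84 FPKM, lowest in library 3.

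The natriuretic peptides changed order between mice. Nppb, the B-type peptide, had 440, 416 and 391 FPKM, and Nppa, the A-type peptide, 213, 276 and 467 FPKM. Nppb was ahead in libraries 1 and 2 and Nppa in library 3, where the share of Nppb was 45.5% against 67.4% and 60.1% in libraries 1 and 2. Cav3, the muscle caveolin, also had a share that moved with the library: 53.7%, 63.7% and 75.2%.

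**Figure D2:**
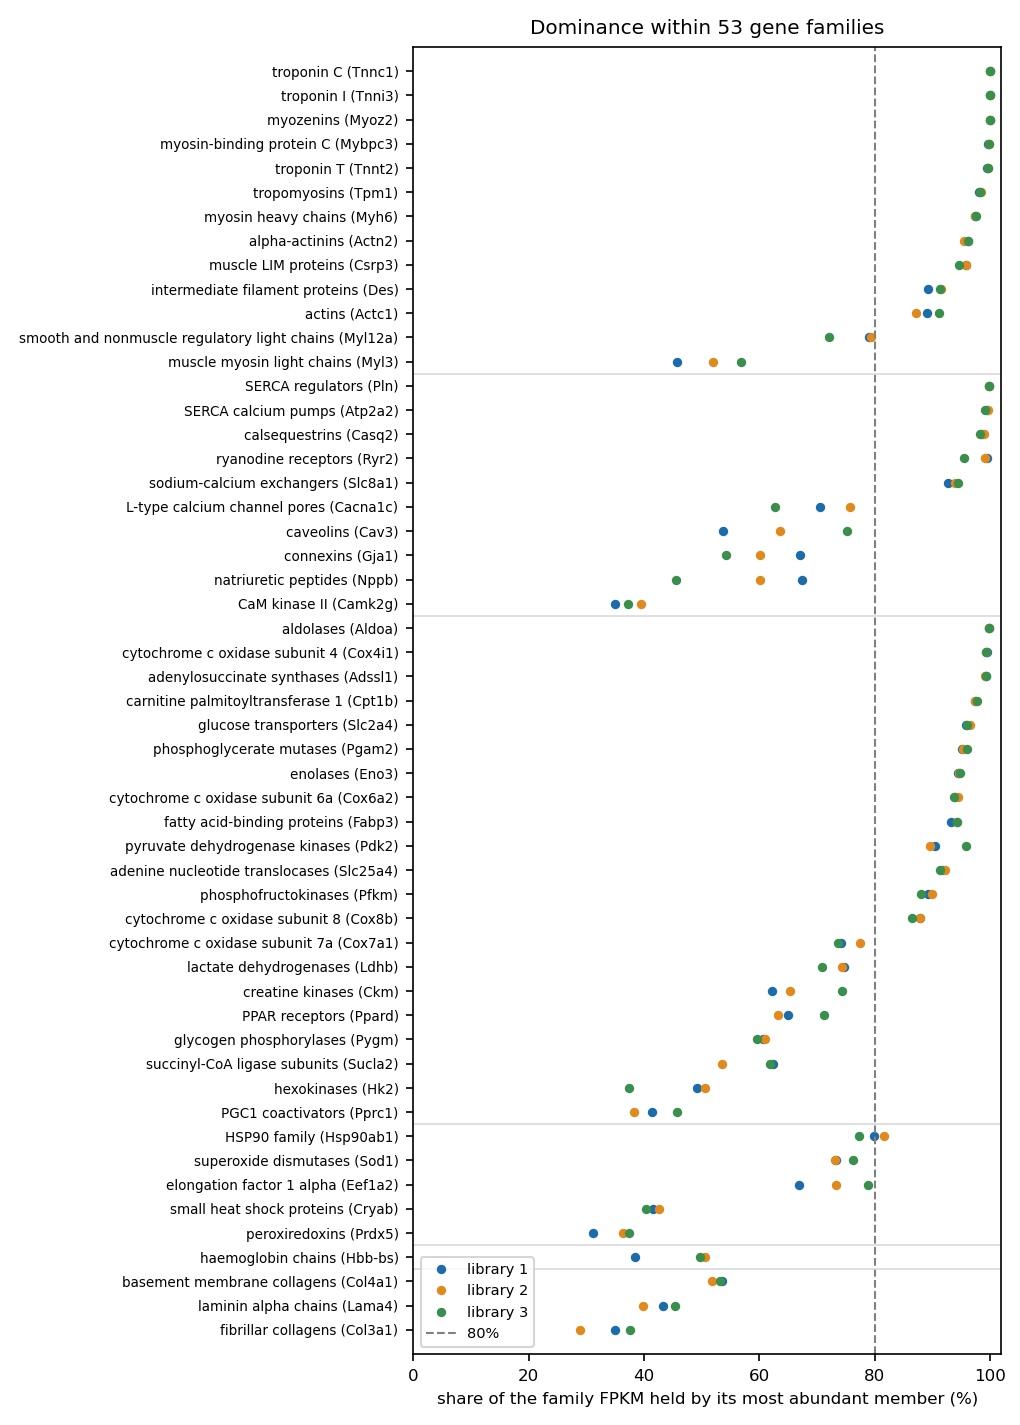
Share of the most abundant member (named in brackets) in the FPKM of each of 53 of the 57 gene families, in percent, with a point for each of the 3 sham control libraries. Families are grouped by role between grey lines and a dashed line marks 80%: 11 of 13 contractile families lie past it in the 3 libraries, and among the stress, blood and matrix families a single point does, that of Hsp90ab1 in library 2 at 81.6%.

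Over the 57 families, which name 217 genes with 211 listed, 30 were held to at least 80% by the same member in each of the 3 libraries, and 25 at a limit of 90%. By role these were 11 of 13 contractile families, 6 of 14 of calcium and conduction, and 13 of 21 of energy metabolism, but 0 of 5 of protein synthesis and stress, 0 of 3 of matrix and 0 of 1 of blood. The leading member was the same in the 3 libraries in 51 families. The other 6 were the light chains, natriuretic peptides, hexokinases, PGC1 coactivators, fibrillar collagens and laminin alpha chains. Ranked by reads in place of FPKM, the leading member was the same in 50 families. Among the rest, Cav1, Camk2a and Sod2 led by reads in place of Cav3, Camk2g and Sod1. The count of dominated families was 30 when any 1 library was left out. Besides Myh1, Myh4 and Myh8, the members at 0 in the 3 libraries were Fabp1 of liver and gut, the embryonic haemoglobins Hbb-y and Hba-x, and the laminin chain Lama1; 51 members lay under 1 FPKM, and the 6 members with no entry in the tables were not analysed here.

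Nuclear genes of oxidative phosphorylation were the largest class. The 84 listed genes held 17.6%, 16.2% and 17.6% of summed FPKM (17.1 ± 0.842%, SD, n = 3), and 36 of them reached 1000 FPKM. Genes were assigned to complexes by their symbols alone, so each Nduf gene, Ndufa4 and Ndufa4l2 included, was counted under complex I. On that grouping the median level was 1799 FPKM for the 16 genes of complex V, the ATP synthase, and 1302 for the 9 of complex III. It was 1208 for the 17 of complex IV, 528 for the 38 of complex I and 394 for the 4 of complex II. Complex I and IV spanned a wide range, down to Ndufb2 at 7.403 FPKM and to Cox7b2 at 0.05 FPKM. Ndufb2 overlaps the antisense gene Gm16272, and the treatment of overlapping reads is not stated in the sources used. Its FPKM also implies a length of 4376 bases, and the part of either in its level was not tested. The most abundant in the class was Cox4i1, a subunit of cytochrome c oxidase, with 4864, 4953 and 6565 FPKM, and in complex V it was Atp5b, the catalytic chain of the ATP synthase, with 4139, 4091 and 3577 FPKM.

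Cytochrome c oxidase has subunits in heart and muscle forms, and these forms led. Cox6a2, the heart and muscle form of subunit 6a, had 4763, 4324 and 5416 FPKM and 94.1% of the pair. Cox7a1 had 4124, 3469 and 3563 FPKM and 75.1%, and Cox8b had 3521, 3060 and 3764 FPKM and 87.4%. Cox4i1 held 99.4% of subunit 4. Slc25a4, the heart and muscle ADP/ATP carrier, had 2958, 2379 and 2202 FPKM and 91.8% of its family.

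Fuel genes kept the same pattern of a lead member. Fabp3, the heart fatty acid-binding protein, had 7907, 6225 and 6742 FPKM and 94.0% of its family, although 21.7% of its 100-base stretches also occur in Fabp3-ps1. Cpt1b, which admits fatty acids to mitochondria, held 97.5% of its family, with 91.1% of its stretches also in the gene Gm44502, and Slc2a4, the insulin-responsive glucose transporter, 96.1%. Eno3, muscle enolase, had 1481, 1479 and 1492 FPKM and Pgam2, muscle phosphoglycerate mutase, 932, 937 and 938 FPKM. On this scale both were almost equal in the 3 mice. Pfkm held 89.1% of the phosphofructokinases and Ldhb, the heart lactate dehydrogenase, 73.4% of its family. Hk2 held 49.3%, 50.5% and 37.4% of the hexokinases, with Hk1 ahead in library 3.

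Other enzyme families were split. Pygm, the muscle glycogen phosphorylase, had 465, 508 and 406 FPKM beside Pygb, the brain form, at 302, 325 and 275 FPKM, and the share of Pygm stayed at 60.6%, 60.9% and 59.6%. Pdk2, which restrains pyruvate oxidation, held 91.9% of its family, while Pdk4, the kinase induced by fasting, had 19.3, 26.6 and 6.24 FPKM and was lowest in library 3. The nuclear receptors and coactivators of fuel genes were low: Ppard had 7.86, 8.68 and 7.97 FPKM, Ppara 0.73, 1.86 and 1.11 FPKM and Ppargc1a 1.46, 2.10 and 1.22 FPKM.

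Ckm, muscle creatine kinase, had 3209, 3356 and 4633 FPKM, and Ckmt2, its mitochondrial partner, 1904, 1738 and 1547 FPKM. By FPKM Ckm was highest and Ckmt2 lowest in library 3, and the share of Ckm was 62.2%, 65.3% and 74.3%. The order of the libraries for Ckmt2 by CPM is not given here. Ckb, the brain form, had 48.8, 46.7 and 55.2 FPKM. The group of creatine kinases, myoglobin and nucleotide exchange held 5.21 ± 0.430% of summed FPKM, fatty acid handling 2.85 ± 0.155%, glycolysis 2.47 ± 0.117% and the tricarboxylic acid cycle 1.46 ± 0.162% (SD, n = 3).

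The mitochondrial genome gave 9.33%, 8.88% and 7.10% of reads, lowest in library 3. It encodes core subunits of the respiratory chain, its own ribosomal RNAs and its tRNAs, and its messages carry short poly(A) tails. Behind mt-Co1, which alone made up 63.1% of the mitochondrial FPKM, came mt-Nd1, a complex I subunit, with 5210.5, 5721 and 5909.6 FPKM, and mt-Cytb, cytochrome b of complex III, with 3702, 4539 and 4455 FPKM. mt-Atp8, a subunit of the ATP synthase, had 1725, 3428 and 4169 FPKM and mt-Nd2 969, 2090.5 and 2162 FPKM, both lowest in library 1.

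Other subunits of the same complexes were listed far lower. mt-Co3, a core subunit of cytochrome c oxidase beside mt-Co1, had 103, 129 and 51.1 FPKM, and mt-Co2, another core subunit, 9.01, 11.5 and 10.3 FPKM. mt-Atp6 had 81.8, 203 and 189 FPKM, mt-Nd3 62.5, 76.7 and 62.2 FPKM and mt-Nd4l 11.3, 14.1 and 19.2 FPKM. These 5 genes were the ones whose sequence is almost wholly present in nuclear transcripts too. Of their 100-base stretches 97.6% to 99.9% occur in transcripts of other genes, and their means lay between 10.3 and 158 FPKM. In the other 8 protein genes 0% to 60.8% of the stretches were shared, and their means lay between 641 and 35254 FPKM.

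**Figure D3:**
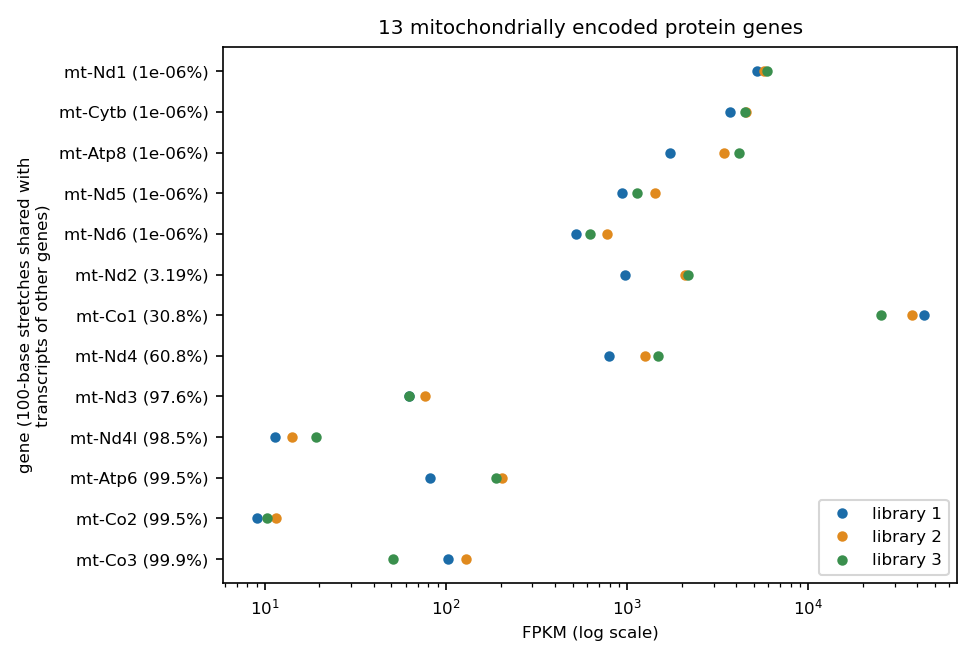
FPKM (log scale) of the 13 mitochondrially encoded protein genes in the 3 sham control libraries, with the share of each gene's 100-base stretches that occur in transcripts of other genes in brackets. The 5 genes with 97.6% or more shared lie at the bottom under 204 FPKM, and the other 8 lie at 520 FPKM or more.

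The nuclear copies of this sequence lie side by side on chromosome 1, between 24611535 and 24616197. Gm29216, which shares 26.3% of the stretches of mt-Co1, had 77.6, 26.3 and 578 FPKM, Gm28437, the copy of mt-Co3, 18.5, 13.2 and 10.3 FPKM, and Gm28661, the copy of mt-Co2, 2.22, 2.63 and 2.07 FPKM. Gm29216 was far higher in library 3, the library in which mt-Co1 was lowest. The counting of reads that match several places is not stated in the sources used, and its part in the low levels of these 5 genes was not tested. The comparison of shared sequence was made after the levels were seen.

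Ribosomal protein genes came close to the mitochondrial genes in summed FPKM and were above them in library 3. The 83 genes held 9.24%, 8.37% and 10.7% of summed FPKM, against 10.2%, 10.8% and 8.22% for the mitochondrial genes, and Rplp1, of the ribosomal stalk, had 2172, 2030.1 and 3491 FPKM. Eef1a2, the elongation factor of adult heart and muscle, held 66.8%, 73.3% and 78.9% of its pair over Eef1a1. Among small heat shock proteins Cryab, the lens and muscle crystallin, led with 2070.3, 2051 and 1710.3 FPKM (41.5%), and by reads Hspb7, a cardiac member with 1036, 1045 and 892 FPKM, was ahead. By FPKM each of these 2 was lowest in library 3, and their order by CPM is not given here. Among antioxidant enzymes Sod1, the cytosolic superoxide dismutase, had 503, 449.5 and 460.5 FPKM and Sod2, the mitochondrial form, 170.4, 153 and 129 FPKM; Prdx5 led the peroxiredoxins with 35.02%. Fth1, ferritin heavy chain, had 4597, 4217 and 3894 FPKM.

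Haemoglobin genes, whose RNA comes from red cells, varied widely between mice. Hbb-bs had 2217, 627 and 1305 FPKM, Hba-a1 1162, 246 and 881 FPKM, and Hbb-bt 1322, 143 and 308 FPKM. Hba-a2 had 1074, 222 and 134 FPKM and was the 1 lowest in library 3, the other 3 being lowest in library 2. The 4 genes held 0.989%, 0.227% and 0.457% of summed FPKM, highest in library 1. The haemoglobin copies share 54.8% to 74.5% of their 100-base stretches with another gene, so the split between copies is uncertain. Extracellular matrix genes held 0.193 ± 0.0142% (SD, n = 3), led by Mgp, matrix Gla protein, an inhibitor of calcification, at 502, 309.5 and 484 FPKM. The collagens were far lower: Col3a1 had 16.2, 15.99 and 21.5 FPKM, Col1a2 14.9, 19.8 and 18.5 FPKM, and Col4a1, of the basement membrane, 41.4, 45.4 and 32.6 FPKM.

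By chromosome, the largest nuclear share came from chromosome 7, with 10.1 ± 0.682% of reads and 12.5 ± 0.494% of summed FPKM (SD, n = 3), although it carries 6.98% of the listed genes. It holds 16 genes at 1000 FPKM or more, and its 10 most abundant, Tnni3, Cox6a2, Ckm, Cox7a1, Cox8b, Cox6b1, Aldoa, Ech1, Csrp3 and Ndufa3, make up 50.03% of its FPKM. Without them the chromosome held 6.24% of summed FPKM. On chromosome 15 the single gene Mb made up 52.2% of the FPKM. Chromosomes 11 and 2 followed chromosome 7 in reads with 7.73% and 7.59%. Their most abundant genes by FPKM were Tcap, the titin cap, and Actc1. The X chromosome, where Ndufb11 was the most abundant gene by FPKM, gave 1.44% of reads. The Y chromosome gave 0.00155% from 27 listed genes, of which 7 had a read in the 3 libraries.

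**Figure D4:**
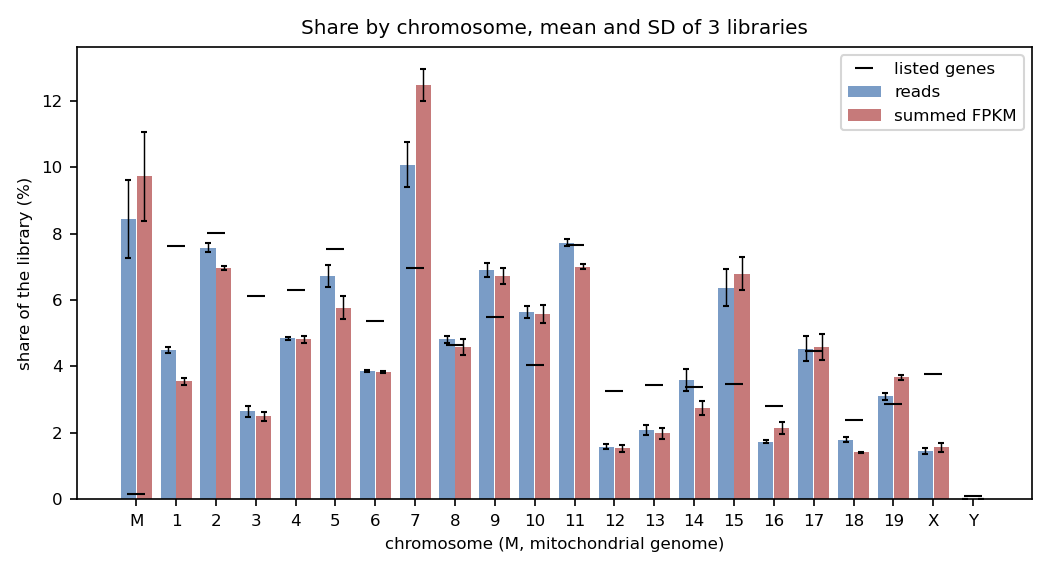
Mean percent of reads (blue bars) and of summed FPKM (red bars) by chromosome over the 3 sham control libraries, with SD as error bars and a dash for the percent of listed genes; M is the mitochondrial genome. Chromosome 7 is highest at 10.1% of reads and 12.5% of FPKM, above its 6.98% of listed genes, and the mitochondrial genome has the longest error bars.

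Among gene types, 17783 protein-coding genes took 98.9%, 98.8% and 98.3% of reads. The 1529 lincRNA genes took 0.474%, 0.539% and 0.806%, and 73.4% of those reads belonged to Yam1, with 1618, 1873 and 2819 FPKM. Yam1 overlaps a gene annotated as ribosomal RNA, and without it lincRNA took 0.140%, 0.147% and 0.185%. In the 221 miRNA genes 73.3% of reads belonged to Gm23935, a gene of 57 bases at chr16:11144125-11144181, with 1639, 1972 and 3600.2 FPKM. By FPKM it was number 32 of all genes and by reads number 873, and its 57 bases are fewer than the 150 of a read. Both Yam1 and Gm23935 were highest in library 3.

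Other such genes were lower. Among antisense genes Gm15543, which overlaps Casc1, had 224, 181 and 175 FPKM, and among processed transcripts Tmem134 had 39.9, 39.1 and 60.4 FPKM. AV026068, which overlaps Hand2, a factor of heart development, was the fourth processed transcript with 25.4, 22.96 and 22.7 FPKM. Peg13, an imprinted transcript, led the sense intronic genes with 13.9, 15.9 and 10.6 FPKM. Gm3244 led the processed pseudogenes with 77.1, 79.9 and 90.2 FPKM. Gm37747, of the provisional type TEC and inside Cers6, had 3.88, 13.6 and 79.5 FPKM, and of the 34 types other than protein coding 19 had their highest share of reads in library 3 and 6 their lowest.

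The spread described here is between libraries, each of a separate mouse, and mice and library preparation cannot be told apart in it. The common biological coefficient of variation was 0.288 over 13188 genes (edgeR), and 0.186 without library 3. Among 6855 genes with a mean CPM of at least 10, the median coefficient of variation was 16.1%, against 3.14% from counting alone. In 399 genes (5.82%) the highest library exceeded the lowest over 2-fold, and in 65 when library 3 was left out. In 1609 genes (23.5%) the 3 libraries lay within 1.2-fold. Which genes were most even depended on the scale. By CPM they included Aars, the alanyl-tRNA synthetase, with 76.5, 76.8 and 76.5 CPM, Kcnj8, a pore of the ATP-sensitive potassium channel, with 82.9, 83.1 and 83.7 CPM, and Pygm and Pygb, the glycogen phosphorylases, with 1531, 1544 and 1495 CPM and 1352, 1343 and 1375 CPM. By FPKM both phosphorylases were lowest in library 3, at 1.25-fold and 1.18-fold between the highest and lowest library, and the most even genes were Pgam2 and Eno3.

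Library 3 was the odd one in most of the 399 genes. It was the higher one in 174 (43.6%) and the lower in 109 (27.3%), while library 2 was higher in 39 and lower in 40, and library 1 in 19 and 18. Among all 6855 genes it was the odd library on the higher side in 1879 and on the lower side in 1624. Several of the largest ratios at 100 FPKM or more belonged to genes known as immediate early genes, which were named for those ratios and not from a list: Nr4a1, a nuclear receptor, had 168, 203 and 19 FPKM, Egr1, a zinc finger factor, 121, 162 and 37.3 FPKM, and Dusp1, a phosphatase of MAP kinases, 305, 314 and 92.3 FPKM. Cyr61, a matricellular protein, had 175, 227 and 50.4 FPKM, and its ratio by CPM lay between those of Nr4a1 and Egr1. Each of these 4 was lowest in library 3. Of the 8 macrophage markers at 10 CPM or more, 7 were highest in library 3 by CPM and 6 by FPKM, against 39.9% and 23.5% of the 6855 genes. Among them was C1qa, a complement chain, with 127, 113 and 209 FPKM. The longest transcripts of C1qa, C1qb and C1qc have 1040, 1088 and 1203 bases, while that of Csf1r, also a marker, has 4701. Genes of 1000 to 2000 bases were higher in library 3 as a whole, at a median log2 ratio of 0.23 to the mean of the others by CPM. The part of length and GC content in the macrophage markers was not tested.

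The largest ratios belonged to low genes, among them genes known from other tissues. Slitrk6, a neuronal membrane protein, had 1.21, 6.16 and 46.5 CPM, Otogl, an inner ear protein, 1.50, 9.17 and 54.3 CPM, and Olfr348, an olfactory receptor, 1.94, 11.1 and 62.5 CPM. In each of these library 1 was lowest and library 3 highest. In all, 55 genes were over 10-fold higher in library 3 than in library 1, and 1 gene was over 10-fold lower: Atf3, a stress-induced factor of the immediate early kind, with 76.5, 87.6 and 6.64 CPM, named after its values were seen. Of the 55 genes, 35 had under 10 CPM in libraries 1 and 2 and so met the minimum mean of 10 CPM through library 3. The 55 genes lay on 19 chromosomes, and 34 were protein coding, against 6733 of the 6855 genes with a mean of at least 10 CPM. Together the 55 genes took 0.0256%, 0.0861% and 0.456% of reads. Their median GC content was 44.66%, against 52.04% for genes with a mean of at least 10 CPM. Protein-coding nuclear genes of 42% to 46% GC were lower in library 3 as a whole. Their median log2 ratio to the mean of the others was −0.24. The part of GC content in the 55 genes was not tested. This set was drawn up after its values were seen.

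**Figure D5:**
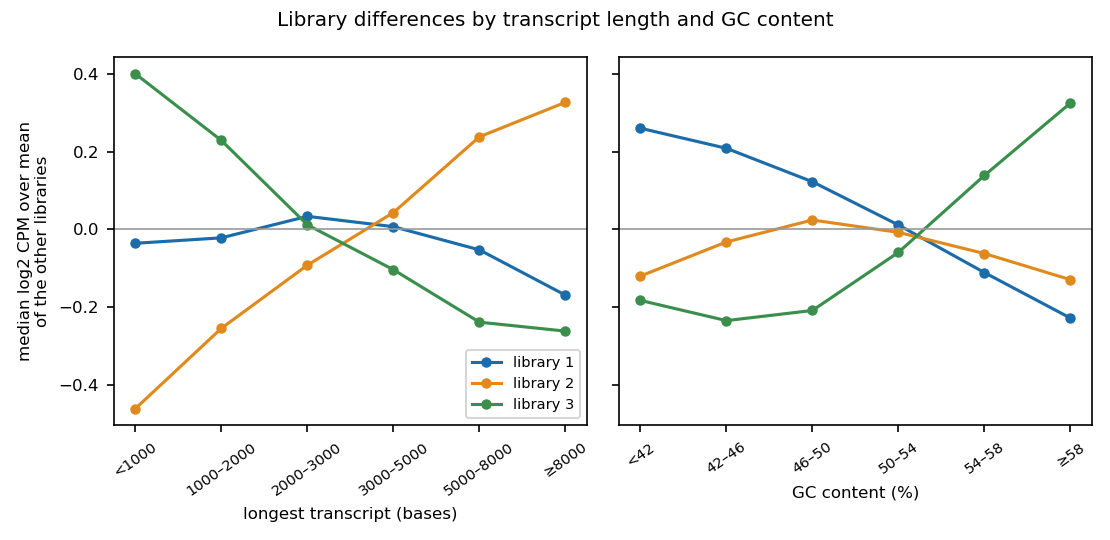
Median log2 ratio of the CPM of each library to the mean of the other 2, by length of the longest transcript in bases (left) and by GC content in percent (right), for 6713 protein-coding nuclear genes of at least 10 CPM. The shortest genes lie at 0.40 in library 3 and at −0.46 in library 2, and the genes of highest GC content at 0.32 in library 3 and at −0.23 in library 1.

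The libraries also differed by transcript length and GC content. For the 366 genes under 1000 bases the median log2 ratio of a library to the mean of the others was −0.04 in library 1, −0.46 in library 2 and 0.40 in library 3; for the 291 genes of 8000 bases or more it was −0.17, 0.33 and −0.26. Short genes were thus highest in library 3 and long genes in library 2. At a GC content of 58% or more the ratios were −0.23, −0.13 and 0.32, and under 42% they were 0.26, −0.12 and −0.18. Ribosomal protein genes and small subunits of the respiratory chain are short: 59 of 82 ribosomal and 45 of 82 oxidative phosphorylation genes were highest in library 3 by CPM, beside 39.9% of the 6855 genes. By FPKM the counts were 39 of 82 and 31 of 82, beside 23.5% of the same genes. The part of length and GC content in the values of these genes was not tested.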

How the data were processed

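Per the labels' protocols, poly(A) RNA of left ventricle was made into directional libraries and read in pairs of 150 nucleotides. Tools named in the submitters' processing notes, with no role or version, are bcl2fastq, TopHat2 and edgeR, and the build is GRCm38. Which tool counted, with which annotation release and strand setting, is not given in the sources used here. Unnormalised whole-number counts for 25319 genes were deposited, with FPKM for 25258 of the genes. Coordinates, lengths and transcripts came from GENCODE vM21 on GRCm38 (25116 genes matched). The authors' FPKM values fit denominators of 38.9, 31.3 and 31.2 (in units of 1e+06 fragments), and counted reads were 88.6%, 87.6% and 83.0% of these. 0 rows named no gene and 0 value columns were left without a sample.

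Shares were computed per library from FPKM, which gives levels per length, and for chromosomes and gene types from counts. Shared sequence is the percent of 100-base stretches of a gene's longest transcript found in any transcript of another gene. The spread was estimated with edgeR 4.0.16 in R 4.3.3 (TMM factors 0.985, 1.08 and 0.941, intercept only, filterByExpr), and DESeq2 1.42.0 was an alternative; the steps were checked on simulated data. With 1 group there was no test. Named genes were taken from these sets, with exceptions said beside them: the most abundant in all, per chromosome and per gene type, family members with at least 5% of their family or at 0, genes with the largest and smallest ratio between libraries, and markers. The members, families and lists were chosen with earlier results of these data known. Some genes are not reported here.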

Additional observations from a re-analysis of the deposited data

How the results depend on the processing

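No paired analysis was possible because a single group is described. Leaving out each library in turn kept the share of the 100 most abundant genes between 50.9% and 51.9%, the mitochondrial share of reads between 7.99% and 9.10%, and the count of dominated families at 30. The top 100 held 51.4% of FPKM, 48.01% of FPKM without mitochondrial genes and 42.2% of reads. By FPKM the mitochondrial genome held 9.73% and protein-coding genes 98.0%. Nuclear oxidative phosphorylation held 18.98% once mitochondrial genes were left out. The biological coefficient of variation ran from 0.186 (without library 3) to 0.332 (without library 2), and was 0.325 with no filter. The number of genes over 2-fold apart ran from 65 (without library 3) to 346 (without library 1) and was 231 without library 2, 1670 (13.5%) at a mean of 1 CPM, 216 of 3683 (5.86%) by FPKM, near the 5.82% by CPM, and 489 with library totals. The lowest correlation of a pair was 0.970 with a pseudocount of 0.1. The excess of short genes in library 3 ran from 0.26 (without library 2) to 0.55 (without library 1), and was 0.27 with library totals; without library 3 it has no value. With 1 group of 3, counting error limits low genes, while the spread between mice limits the rest.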
